A study of Mus musculus with 6 samples.

Results

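Claudins are small proteins that cross the membrane 4 times and assemble, between neighbouring cells, into the strands of tight junctions. Some claudins seal the space between cells and others form pores for particular ions. In a peripheral nerve such junctions close the capillaries, join the perineurial cells that wrap each bundle of fibres, and bind a myelinating Schwann cell to itself at its incisures, paranodes and mesaxons. The 10 claudin genes described here are Cldn1, Cldn2, Cldn3, Cldn4, Cldn5, Cldn10, Cldn11, Cldn12, Cldn15 and Cldn19. They were found by symbol among the non-control probes of the arrays, 10 of 30325 genes on the array, and they have 12 of its 39429 probes. This set was chosen from measured values of the same arrays, so the differences of its members are given as a description, without p-values. Another 17 claudin genes on the array were taken as a comparison.

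The arrays measured total RNA from sciatic nerves of mice aged 1 month, of the strain written in the labels as C56 BL6. Control littermates (Ctrl) gave 3 independent pools, and OGT_SCKO mice, in which the O-GlcNAc transferase gene Ogt was deleted in Schwann cells, gave 3 more. Each pool was hybridised to 1 single-colour Agilent array after chemical labelling with a red dye. The driver of the deletion and the number of animals in a pool are not given in the sources used here, so tests measure the spread between pools. Slide 1 carried Ctrl 2 and all 3 OGT_SCKO pools, and slide 2 carried Ctrl 1 and Ctrl 3. A value "within slide 1" therefore sets the 3 OGT_SCKO pools against Ctrl 2 alone.

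Levels are log2 of the background-corrected signal minus the 75th percentile of that array, and differences are OGT_SCKO minus Ctrl on this log2 scale. Probes differ in brightness, so levels of separate probes were not compared as amounts of RNA. Where the levels of a list are summed, its brightest probes weigh most. The deleted gene checks the labels. Ogt stood at 0.46, 0.35 and 0.11 in the Ctrl pools and at -0.89, -1.01 and -1.01 in the OGT_SCKO pools, a difference of -1.28 (SE 0.126, adjusted p = 0.00117, limma with Benjamini-Hochberg adjustment over 19059 genes). Over all tested genes the median difference was -0.07, with quartiles of -0.40 and 0.22. In whole nerve, fewer cells of a type and less RNA per cell cannot be told apart.

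Of the 10 claudins, 8 were tested, because a probe was well above background on all arrays of a group. Of these 8, Cldn3 and Cldn10 were higher and Cldn12 was lower in OGT_SCKO at an adjusted p under 0.05, and the other 5 did not pass. That is 37.5% of the tested claudins, beside 23.3% of all genes tested (11.2% higher and 12.1% lower). The 6 pools fell into groups that did not overlap for 5 of the 8 (Cldn3, Cldn5, Cldn10, Cldn12 and Cldn15), beside 45.7% of all genes. Since the set was chosen on these values, nothing is read from either share. The same 23.3% of all genes is the background for every list counted below in the main fit, and a count near it is not a result about that list. Other settings have another share: with 1 pool left out, 1974 to 5630 of the 19059 genes passed.

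**Figure D1:**
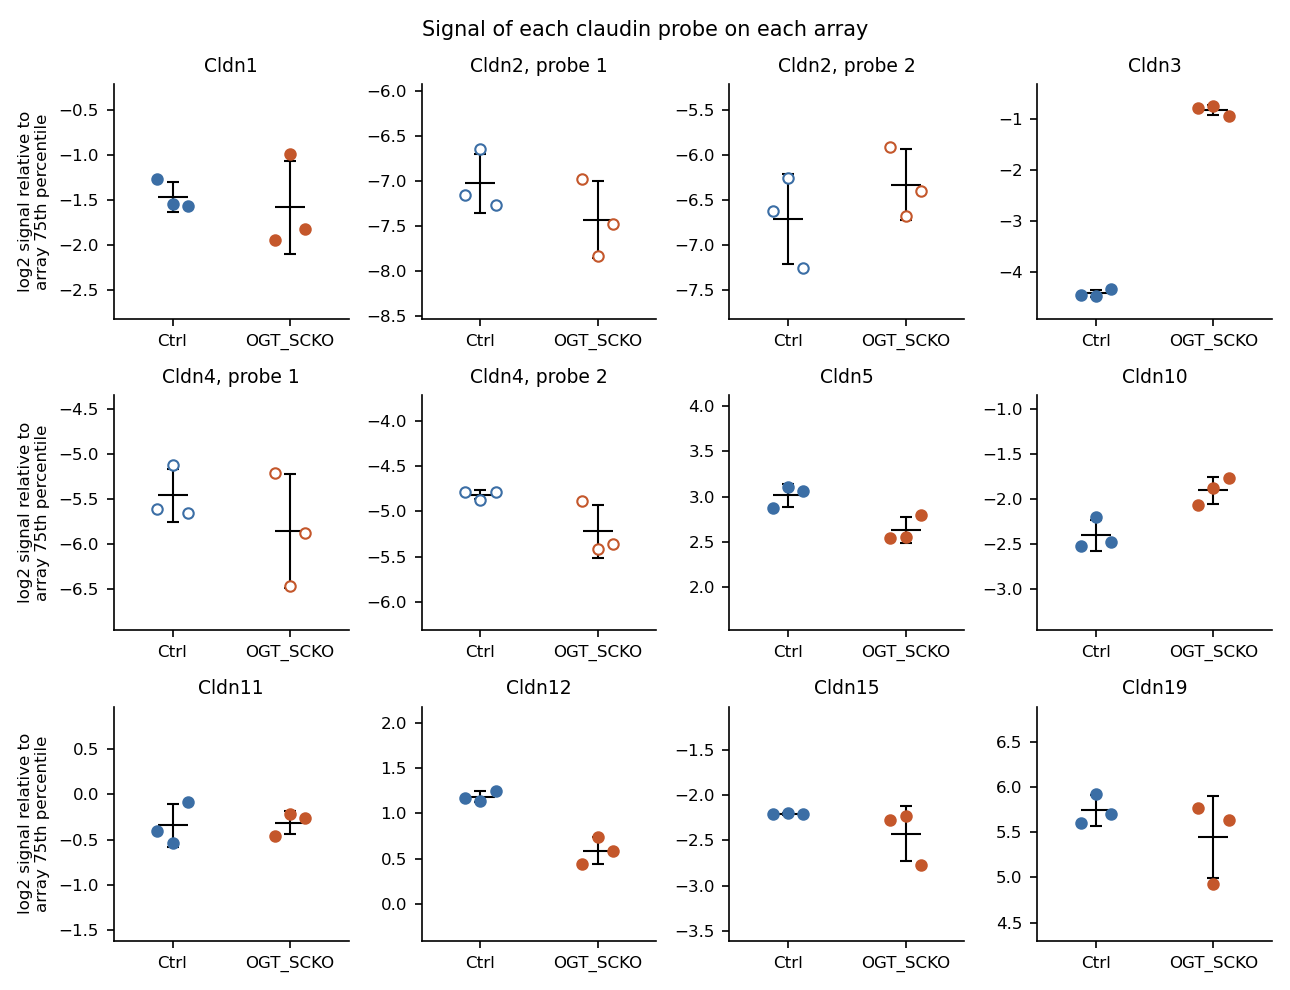
Each panel plots 1 claudin probe. The vertical axis is the log2 signal relative to the 75th percentile of the array, the points are the 3 Ctrl and 3 OGT_SCKO pools from replicate 1 on the left to replicate 3 on the right, and the bars give the mean ± SD. Open points mark a group in which the probe was not well above background on all 3 arrays; every panel spans 2.6 units except Cldn3, which spans 4.6. The OGT_SCKO pools of Cldn3 lie between -0.93 and -0.74, far above the Ctrl pools at -4.47 to -4.33.

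The upstream windows of 3 genes are shown, because the series concerns the transcription factor JUN, which binds AP-1 sites, and because Cldn3, the claudin with the largest difference, lies next to Cldn4 on chromosome 5. Each is the 250 bases before the RefSeq start in assembly GRCm38.p6, 5′ to 3′ on the strand of the gene. Capitals mark the AP-1 motif TGANTCA and the GC box GGGCGG, searched on both strands, with no overlap between them in these windows. Cldn3 is at chr5:134985964-134986213 (plus strand), Cldn4 at chr5:134946935-134947184 (minus strand) and Cldn15 at chr5:136967619-136967868 (plus strand).
Cldn3: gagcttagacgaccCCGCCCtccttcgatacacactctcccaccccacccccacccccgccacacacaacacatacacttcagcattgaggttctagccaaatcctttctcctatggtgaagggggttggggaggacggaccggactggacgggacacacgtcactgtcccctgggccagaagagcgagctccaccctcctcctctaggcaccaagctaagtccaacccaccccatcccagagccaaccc
Cldn4: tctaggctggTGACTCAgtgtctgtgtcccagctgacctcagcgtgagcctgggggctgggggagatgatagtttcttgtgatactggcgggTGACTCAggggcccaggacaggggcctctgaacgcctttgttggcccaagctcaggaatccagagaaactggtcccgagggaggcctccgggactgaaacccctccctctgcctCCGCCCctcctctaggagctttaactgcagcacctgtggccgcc
Cldn15: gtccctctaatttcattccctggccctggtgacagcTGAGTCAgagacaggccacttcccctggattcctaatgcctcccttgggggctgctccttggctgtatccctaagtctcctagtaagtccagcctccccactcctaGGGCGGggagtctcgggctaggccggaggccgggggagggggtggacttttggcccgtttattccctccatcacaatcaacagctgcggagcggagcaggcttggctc

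The Cldn4 window held 2 AP-1 matches, which start 240 and 158 bases before the gene's start, and the Cldn15 window held 1, 214 bases before the start. No AP-1 match was in the Cldn3 window, and Cldn4 and Cldn15 were the only claudins of the set with one in any of their 14 windows. Among all 32851 windows of this length, 6.75% held an AP-1 match. A GC box was in 10 of the 14 claudin windows, beside 32.7% of all windows. Windows of Cldn12 and of Cldn19 overlap, so the same box was counted more than once. The claudin windows held 36.0% to 72.4% G and C, most of them above the median of 52.4% over all windows. One claudin, Cldn2, had the TATA letters TATAAA, which 12.4% of windows hold, and none had the cAMP response element TGACGTCA, which 1.55% hold. A match is a description of letters only, and its absence says nothing about a factor outside these windows.

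Cldn3, a sealing claudin best known from epithelia, showed the largest difference of the set. Its probe lies on chromosome 5 at 135463284 to 135463342 of build mm9 (plus strand). Its levels were -4.45, -4.47 and -4.33 in Ctrl 1, 2 and 3, and -0.79, -0.74 and -0.93 in OGT_SCKO 1, 2 and 3. Every OGT_SCKO pool was far above every Ctrl pool, and the pools of a group lay close together. The means were -4.42 ± 0.0745 in Ctrl and -0.82 ± 0.0967 in OGT_SCKO (SD, n = 3), a difference of 3.60 (SE 0.106), or 12.1-fold. In Ctrl the probe was near the lower end of what the array measures: the processed signal was 190, 124 and 214 in the Ctrl pools, against 2004, 3675 and 2537 in OGT_SCKO. Relative to the 75th percentile of the array, the signal went from 4.68% to 56.7%. With another background correction, normexp on the mean and background signals, the difference was 2.82, or 7.05-fold, so the fold depends on how the background was treated. Within slide 1 the difference was 3.65.

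Cldn3 lies beside other claudins on chromosome 5. Of the 5 protein-coding genes on each side, a choice made after values were seen, 8 were tested: past the threshold, none rose and 2 fell. Those 2 were Eln, which encodes elastin, at -1.10 (SE 0.238, limma adjusted p = 0.0202), and Dnajc30 at -0.47 (SE 0.136, limma adjusted p = 0.0490). Abhd11, the next gene on one side, differed by 0.39 (limma adjusted p = 0.112), Stx1a by 0.25 (limma adjusted p = 0.264) and Bud23 by 0.30 (limma adjusted p = 0.0937). Vps37d differed by -0.49 (limma adjusted p = 0.0534) and Tmem270 by -0.70 (limma adjusted p = 0.110). On the other side stand Cldn4, Mettl27 and Cldn13; Cldn4 and Cldn13 were not tested, and Mettl27 differed by -0.72 (limma adjusted p = 0.0515).

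Cldn4 is another sealing claudin of epithelia. Its first probe, at 135421347 to 135421406 of chromosome 5 (mm9), was at background on all 6 arrays. Its second, on chromosome 5 at 135422135 to 135422194 (mm9), was well above background on 2 Ctrl arrays and 1 OGT_SCKO array, with levels of -4.78, -4.87 and -4.79 in Ctrl and -4.88, -5.42 and -5.36 in OGT_SCKO. The lowest Ctrl pool and the highest OGT_SCKO pool were nearly equal, and with values at the edge of detection no fold is given. Cldn2 is a pore-forming claudin of kidney and gut. Its probes, on chromosome X at 136345244 to 136345303 and 136343889 to 136343948 (mm9), were at background on every array.

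**Figure D2:**
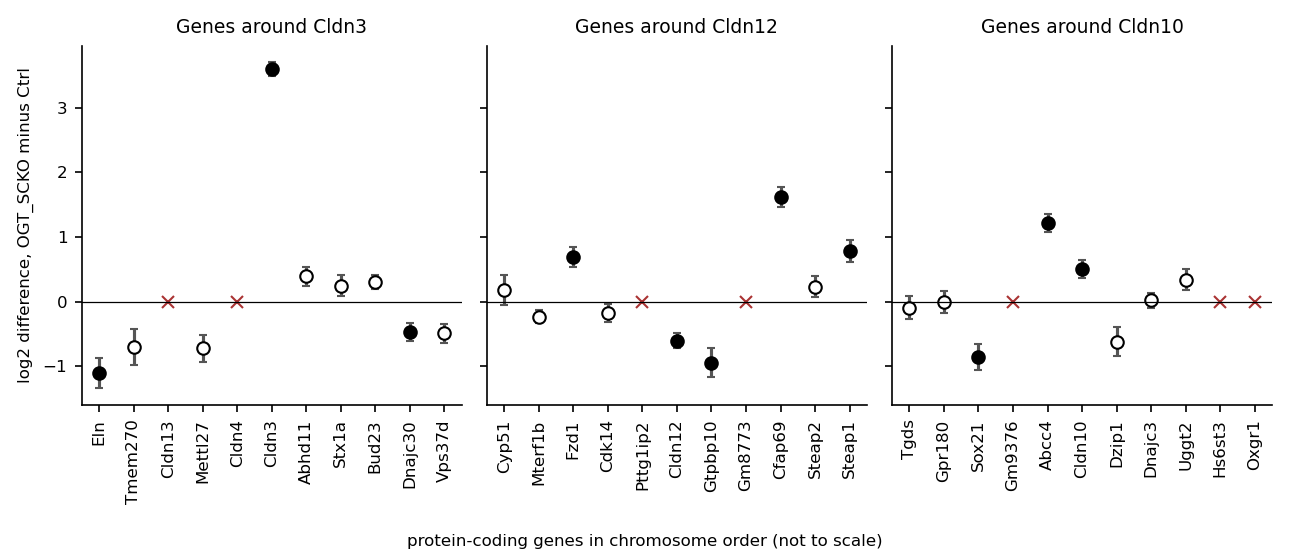
Each panel plots, in chromosome order and not to scale, a claudin and 5 protein-coding genes on each side. The vertical axis is the log2 difference, OGT_SCKO minus Ctrl, with its SE; filled points passed an adjusted p under 0.05, and crosses at 0 mark genes that were not tested. Around Cldn3 no neighbour rose past the threshold and 2 fell, while Cldn12 has 3 neighbours that rose past it and 1 that fell.

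Cldn5 is the principal claudin of capillary endothelium. Its levels were 2.87, 3.11 and 3.06 in Ctrl and 2.54, 2.55 and 2.80 in OGT_SCKO, from a probe on chromosome 16 at 18778046 to 18778105 (mm9). All 3 OGT_SCKO pools were below the lowest Ctrl pool. The difference was -0.39 (SE 0.126), which left 76.6% of the Ctrl level, and it did not pass the threshold in the main fit or in any of 17 other settings. Within slide 1 it was -0.49.

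Cldn5 was read beside 13 endothelial markers, of which 3 fell and none rose, with a median of -0.23. Over all tested genes 23.3% passed (12.1% lower), with a median of -0.07. Vwf, the clotting protein von Willebrand factor, fell by 0.60 (SE 0.119, limma adjusted p = 0.0146), though its other probe gave 0.05. Egfl7, a secreted vessel protein, fell by 0.48 (SE 0.125, limma adjusted p = 0.0350), and the efflux pump gene Abcb1a fell by 0.66 (SE 0.183, limma adjusted p = 0.0434). Each of these 3 calls was lost without any single Ctrl pool (limma adjusted p from 0.0508 to 0.131), and those of Egfl7 and Abcb1a also without OGT_SCKO 1 or 2. The adhesion gene Pecam1 differed by -0.37 (limma adjusted p = 0.156) and Cdh5, the endothelial cadherin, by -0.23 (limma adjusted p = 0.338). The summed level of the 13 markers was 41.4 to 46.2 times the 75th percentile in Ctrl and 29.3 to 36.2 in OGT_SCKO. The brightest probes, of Egfl7, Mfsd2a, Vwf and Kdr (Ctrl means 3.73, 3.30, 3.21 and 2.38), weigh most in that sum. Of the 13 markers, 2 had a positive difference (Tie1 0.17 and Flt1 0.03) and 11 a negative one, such as Emcn at -0.03 and Eng at -0.11. The part of these markers in the Cldn5 difference was not tested.

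Cldn1 is the claudin of perineurial cells. Its levels were -1.27, -1.55 and -1.57 in Ctrl and -1.94, -0.99 and -1.82 in OGT_SCKO, from a probe on chromosome 16 at 26357372 to 26357431 (mm9, minus strand). The groups overlapped, with OGT_SCKO 2 the highest pool of all, and the difference was -0.12 (SE 0.258). It ran from -0.41 to 0.06 over 17 settings. Cldn1 was read beside 5 perineurial markers, of which 2 fell and none rose. Msln, mesothelin, fell by 1.18 (SE 0.219, limma adjusted p = 0.0120) and Lypd2 fell by 1.18 (SE 0.235, limma adjusted p = 0.0151). Both calls were lost without OGT_SCKO 3 (limma adjusted p = 0.0524 for Msln and 0.0653 for Lypd2). Slc2a1, the glucose transporter of the perineurium, differed by -0.29 (limma adjusted p = 0.107), Itgb4 by -0.52 (limma adjusted p = 0.0811) and Itih5 by 0.27 (limma adjusted p = 0.249). The 5 markers summed to 52.3 to 69.0 times the 75th percentile in Ctrl and 40.2 to 47.3 in OGT_SCKO. Itgb4, the brightest of the 5 with a Ctrl mean of 5.07, weighs most in that sum, so the sum mainly follows 1 gene.

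Cldn19 is the claudin of the Schwann cell's own tight junctions, at incisures and paranodes. Its levels were 5.60, 5.93 and 5.70 in Ctrl and 5.77, 4.93 and 5.64 in OGT_SCKO, from a probe on chromosome 4 at 118929768 to 118929827 (mm9). The groups overlapped, and OGT_SCKO 2 was the lowest pool. The difference was -0.30 (SE 0.236), and it was -0.48 within slide 1. Quantile normalisation turned it to 0.01 and the authors' deposited log2 values to 0.02, and without OGT_SCKO 2 it was -0.03, so no direction is given.

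Of 10 genes of Schwann cell junctions and paranodes, 1 passed the test, with a median difference of -0.22. It was Ctnnd1, which encodes the cadherin partner p120 catenin, at -0.34 (SE 0.0927, limma adjusted p = 0.0405), and that call was lost in 14 of 17 other settings (-0.21 with quantile normalisation). With slide as a fixed block 1 gene of the list passed, and it was higher. Of 10 myelinating Schwann cell markers, 1 rose and 1 fell, with a median of -0.37. Gldn, gliomedin, a protein of the nodal gap, rose by 0.93 (SE 0.102, limma adjusted p = 0.00177), and Prx, periaxin, fell by 0.53 (SE 0.139, limma adjusted p = 0.0375). The Prx call was lost without any single Ctrl pool or without OGT_SCKO 2 or 3 (limma adjusted p from 0.0539 to 0.120). With quantile normalisation Prx was -0.20 (limma adjusted p = 0.242), as it was in the deposited values (limma adjusted p = 0.217). The 10 markers summed to 584 to 717 times the 75th percentile in Ctrl and 397 to 603 in OGT_SCKO, ranges that overlap.

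Cldn12, an atypical claudin that lacks the usual C-terminal motif for binding scaffolds, was lower in OGT_SCKO. Its levels were 1.17, 1.14 and 1.25 in Ctrl and 0.44, 0.74 and 0.58 in OGT_SCKO, from a probe on chromosome 5 at 5505223 to 5505282 (mm9, minus strand). Every OGT_SCKO pool was below every Ctrl pool. The means were 1.19 ± 0.0576 and 0.58 ± 0.151 (SD, n = 3), a difference of -0.60 (SE 0.116), which left 65.9% of the Ctrl level. It was -0.55 within slide 1, where it did not pass the threshold, and it also missed the threshold without Ctrl 1 (-0.61), without Ctrl 3 (-0.57) or without OGT_SCKO 3 (-0.60). Of its 8 tested gene-order neighbours, 3 rose and 1 fell: Fzd1, a Wnt receptor, by 0.69, Cfap69 by 1.62 and Steap1 by 0.78, against Gtpbp10 at -0.94.

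Cldn10 encodes pore-forming claudins, known best from the kidney. Its levels were -2.52, -2.20 and -2.47 in Ctrl and -2.06, -1.88 and -1.76 in OGT_SCKO, from a probe on chromosome 14 at 119273459 to 119273518 (mm9). The groups did not overlap, but the lowest OGT_SCKO pool was close to the highest Ctrl pool, Ctrl 2. The means were -2.40 ± 0.176 and -1.90 ± 0.153 (SD, n = 3), a difference of 0.50 (SE 0.139), or 1.41-fold. Within slide 1 it was 0.30, and it passed in 8 of 17 other settings. It missed the threshold without Ctrl 1 (0.44), Ctrl 3 (0.46), OGT_SCKO 2 (0.49) or OGT_SCKO 3 (0.43). Of its 7 tested neighbours, Abcc4, an efflux transporter next to it, rose by 1.22 and the transcription factor gene Sox21 stood at -0.85.

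Cldn11, the claudin of myelin in the central nervous system, stood at -0.41, -0.54 and -0.08 in Ctrl and at -0.46, -0.22 and -0.26 in OGT_SCKO, from a probe on chromosome 3 at 31062922 to 31062981 (mm9). The groups overlapped and the difference was 0.04 (SE 0.151), or 0.23 within slide 1. Cldn15, a pore-forming claudin of the gut, stood at -2.21, -2.20 and -2.21 in Ctrl and at -2.27, -2.23 and -2.77 in OGT_SCKO, from a probe on chromosome 5 at 137451465 to 137451524 (mm9). The groups did not overlap, but only OGT_SCKO 3 was clearly lower. The difference was -0.22 (SE 0.162), and -0.04 was the smallest size it took over 17 settings.

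**Figure D3:**
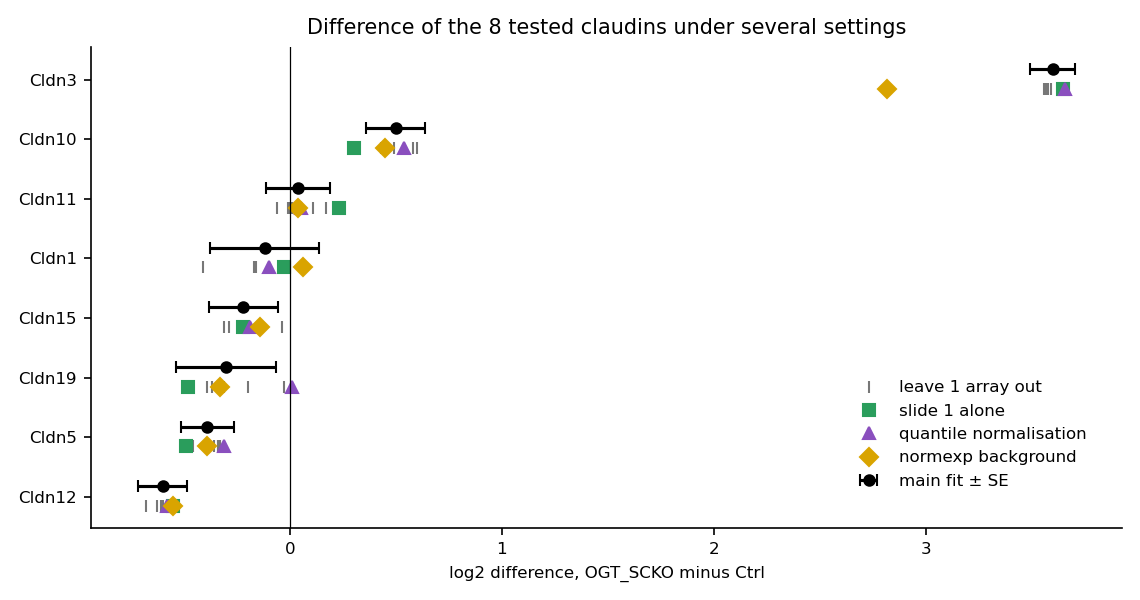
The horizontal axis is the log2 difference, OGT_SCKO minus Ctrl, of the 8 tested claudins. Black points with bars give the main fit ± SE, grey ticks the fits without 1 array, squares slide 1 alone, triangles quantile normalisation and diamonds the normexp background. Cldn3 stays between 2.82 and 3.66, and for Cldn19 quantile normalisation gives 0.01.

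The genes most like the 3 largest differences were found by the smallest root mean square distance between profiles over the 6 arrays, each centred on its own mean, among 14279 genes. For Cldn3 they were Fam174b (distance 0.148, difference 3.37), the chemokine gene Cxcl14 (0.186, 3.69) and the histone gene H4c17 (0.207, 3.36). In all 3 Ctrl pools the H4c17 probe was at background, so its difference is not a measured fold. For Cldn12 they were C1galt1c1 (0.0304), Rell1 (0.0314) and Sgf29 (0.0369), and for Cldn10 they were Prpf19 (0.0608), Cks2 (0.0691) and Polr1e (0.0773). The difference between the groups weighs most in this distance, so genes with a difference of similar size are returned by construction. Shared regulation was not tested.

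Of the 17 further claudin genes on the array, 8 were tested: 1 fell, none rose, and the median difference was -0.16. Cldn22 stood at 1.10, 1.82 and 1.23 in Ctrl and at 0.38, -0.03 and -0.01 in OGT_SCKO. It fell by 1.27 (SE 0.222, limma adjusted p = 0.00959), or 2.41-fold; within slide 1 it was -1.71 (limma adjusted p = 0.0529). Without OGT_SCKO 1, 4 of the 8 passed, 1 higher and 3 lower. In that setting 5630 of all 19059 genes passed, against 4438 in the main fit. Of 9 tested relatives with the same 4-pass fold, 1 rose, with a median of -0.20. Tmem47 rose by 1.24 (SE 0.234, limma adjusted p = 0.0127), and the call was lost without OGT_SCKO 3 (1.17, limma adjusted p = 0.0578). The probes of Nkg7 disagreed, with -0.46 (limma adjusted p = 0.352) on the probe used and 2.80 on the other.

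Among the proteins that join claudins in the junction, transmembrane and scaffold genes were read apart. Of 8 tested transmembrane partners, 1 fell, with a median of -0.19. F11r, the junctional adhesion molecule JAM-A, fell by 0.38 (SE 0.107, limma adjusted p = 0.0444), a call lost in 13 of 17 other settings. With quantile normalisation, median scaling and the deposited values the 1 gene that passed was higher in OGT_SCKO, not lower. Marveld3, a relative of occludin, differed by 0.60 (limma adjusted p = 0.0537) on the probe used and by 2.52 on its other probe. Ocln, occludin, was not tested: 1 probe was well above background on 2 Ctrl and 2 OGT_SCKO arrays and the other on none.

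Of 20 tested scaffold genes, 2 rose and 3 fell, with a median of -0.13. The ZO-3 gene Tjp3 rose by 1.04 (SE 0.185, limma adjusted p = 0.0103), with levels of -3.11, -3.02 and -3.03 in Ctrl and -1.80, -2.43 and -1.82 in OGT_SCKO. Magi3, another scaffold with PDZ domains, rose by 0.80 (SE 0.103, limma adjusted p = 0.00329), but its probe was well above background on only 2 of 3 Ctrl arrays and was kept through the OGT_SCKO group, where it is high. With the normexp background Magi3 was 0.52 (limma adjusted p = 0.219) and Tjp3 0.84 (limma adjusted p = 0.0510), so neither passed. Prkci, the polarity kinase aPKC iota, fell by 0.47 (SE 0.103, limma adjusted p = 0.0210). Cgn, cingulin, fell by 0.47 (SE 0.124, limma adjusted p = 0.0382), and was at -0.27 (limma adjusted p = 0.420) with normexp. The fifth was Amot, angiomotin, at -0.77 (SE 0.207, limma adjusted p = 0.0397), named after its values were seen. Tjp1, the ZO-1 gene, differed by 0.46 (SE 0.144, limma adjusted p = 0.0628) and did not pass. Without any 1 of Ctrl 1, Ctrl 2, Ctrl 3 or OGT_SCKO 3, 2 scaffold genes passed, both higher. With normexp 2 passed, both lower, so the scaffolds have no settled direction.

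Epithelial markers stand beside Cldn3 because that claudin is known from epithelia. Of 7, 4 were tested; 2 fell and none rose, with a median of -0.46. Krt19 fell by 1.13 (SE 0.146, limma adjusted p = 0.00329) and Krt14 fell by 0.99 (SE 0.253, limma adjusted p = 0.0345). The Krt14 call was lost without any single Ctrl pool or without OGT_SCKO 3 (limma adjusted p from 0.0761 to 0.101), and with the normexp background (-0.70, limma adjusted p = 0.163). Epcam and Krt8 were at background on every array, and Krt18 was measured above it on 1 Ctrl and 2 OGT_SCKO arrays. The 4 tested markers together summed to 5.04 to 5.37 times the 75th percentile in Ctrl and 4.10 to 4.30 in OGT_SCKO. The members went both ways: Krt5 differed by 0.06 (limma adjusted p = 0.913) and Cdh1, E-cadherin, by 0.11 (limma adjusted p = 0.523). Cdh1 was also in the list of Schwann cell junction genes. With a Ctrl mean of 1.46 it weighs most in the sum, which is therefore not a purely epithelial value. The part of these markers in the Cldn3 value was not tested. Of the other cell types, 4 of 5 tested adipocyte markers fell (Cidec, Fabp4, Adipoq and Retn), as did all 4 tested skeletal muscle markers (Actn3, Acta1, Tnnt3 and Myh4, median -1.47); their part in the claudin values was not tested. Cidec and Adipoq were well above background on only 1 OGT_SCKO array and Retn on 2, so their differences are not measured folds. With the normexp background none of these 4 adipocyte calls held (limma adjusted p from 0.0508 to 0.155), and of the muscle calls that of Actn3 alone did. Among mural markers Pdgfrb rose by 0.69 and Kcnj8 fell by 0.69, the latter at -0.22 (limma adjusted p = 0.687) with the normexp background. Dpt fell by 0.99 among fibroblast markers. Cx3cr1 rose by 1.05 among macrophage markers, a call lost in 9 of 17 other settings. Within slide 1, which leaves 1 Ctrl pool, most calls of partner and marker genes were lost, and so was that of the deleted gene Ogt (-1.32). Some differences were larger there, such as Msln (-1.65) and Lypd2 (-1.61), and others smaller, such as Actn3 (-3.49) and Acta1 (-1.09).

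**Figure D4:**
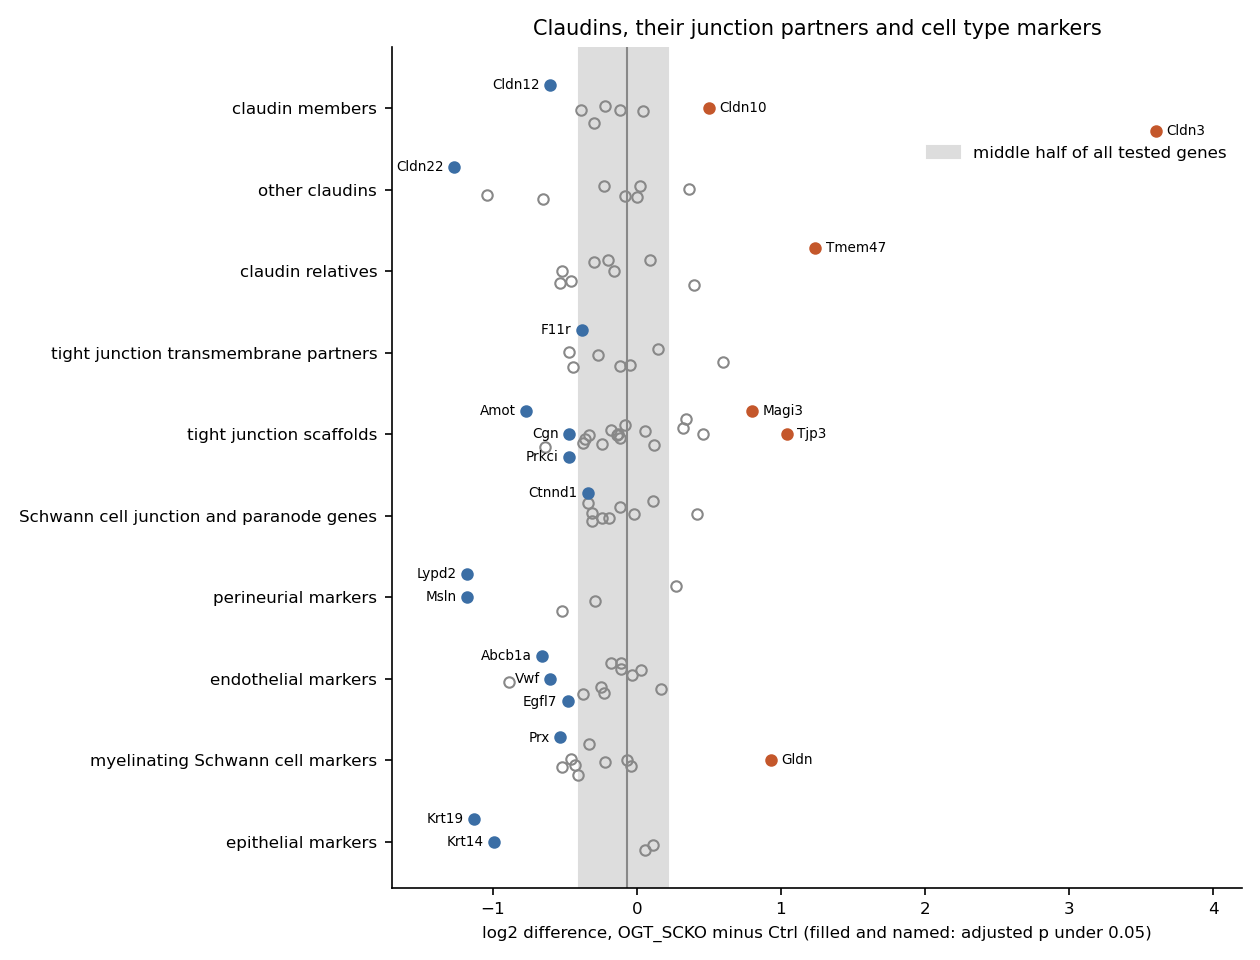
The horizontal axis is the log2 difference, OGT_SCKO minus Ctrl, and each point is a tested gene of the list named on the vertical axis. Filled, named points passed an adjusted p under 0.05 (red higher, blue lower), open points did not, the grey band spans the quartiles of all tested genes (-0.40 to 0.22) and the grey line is their median (-0.07). Cldn3 at 3.60 stands to the right of every other gene plotted.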

How the data were processed

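Per the file headers, the deposited spot intensity values were background-subtracted and detrended by Agilent Feature Extraction 11.5.1.1. No scaling between arrays had been applied. All columns of the log2 table that the authors deposited share a median of 9.13; how it was made is not stated in these sources, and it served as an alternative. There were 43020 non-control spots per array, which carry 39429 probes. The share of probes well above background lay between 59.0% and 65.2%, with 0 saturated spots, and the 75th percentile of an array's signal between 2749 (Ctrl 2) and 6136 (OGT_SCKO 2). Precision is limited by the number of arrays.

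Spots of a probe were averaged, without control and outlier spots (40 probes lost an array). Keeping probes well above background on every array of a group left 24288. The brightest kept probe stood for its gene, which gave 19059 genes. Of all probes, 27655 were named by accession through a RefSeq table of assembly GRCm38.p6, and the others kept the array's symbol. Differences were fitted with limma 3.58.1 in R 4.3.3 (lmFit and eBayes, 6 arrays, no covariate), with Benjamini-Hochberg adjustment over all genes and a threshold of 0.05. The fit was also run on simulated data with independent noise and no slide effect, so that run cannot speak to the slide layout. Probe positions are those of the files (mm9); exon and UTR annotation was not used here.

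The claudins and the gene lists were chosen with earlier results of these data known. Beside every claudin, the text names those genes of each list that passed, at most 4 by smallest p, with Tjp1, Ocln, Pecam1, Cdh5, Slc2a1 and Ogt, and the 3 genes with the most similar profile to each of the 3 largest claudin differences. One further gene of this rule is not reported here. Mural (1 of 7 rose, 1 fell), fibroblast (1 of 8 fell) and macrophage (1 of 8 rose) markers were counted too. Other scalings, backgrounds, filters, probe choices, slide terms and omitted arrays were tried as alternatives.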

Additional observations from a re-analysis of the deposited data

How the results depend on the processing

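Cldn3 passed the threshold in all 17 other settings run, with a difference between 2.82 and 3.66; Cldn12 passed in 11 of 17 and Cldn10 in 8 of 17, and no called difference changed sign. These settings reuse the same 6 arrays, and slide as a fixed block and slide 1 alone estimate the same difference, so the settings are not independent checks. The claudins were also chosen from values of these arrays, so a pass in a refit is no support for them. The counts past the threshold moved more, and where no reason is given the cause was not tested. Of all genes, 4438 passed in the main fit, 2722 with the normexp background, 2629 with no filter on dim probes (more genes tested), 1224 with slide as a fixed block, 406 with slide 1 alone (1 Ctrl array, assumed to vary like the others), 1735 at an adjusted p under 0.01 and 1974 to 5630 when 1 pool was left out. Of the 10 claudins, 1 passed (Cldn3) with slide as a fixed block, with slide 1 alone and at the threshold of 0.01, and 1 to 3 passed when 1 pool was left out. Of the other claudins, 0 passed with slide 1 alone and 1 to 4 without 1 pool. Of the claudin relatives, 2 passed with the mean of a gene's probes and with slide as a random block, 0 with slide 1 alone and at 0.01, and 0 to 2 without 1 pool. Of the transmembrane partners, 2 passed with the mean of probes and with the random block, 0 with normexp, the fixed slide block, slide 1 alone and the 0.01 threshold, and 0 to 1 without 1 pool. Of the scaffolds, 3 passed with median scaling, 2 with normexp (both lower), 2 with no filter (both higher), 1 with the fixed slide block and at 0.01, 0 with slide 1 alone, and 2 to 6 without 1 pool. Of the Schwann cell junction genes, 0 passed with quantile normalisation, median scaling, no filter, the mean of probes, the deposited values, slide 1 alone and the 0.01 threshold, 1 with slide as a fixed block (higher, against 1 lower in the main fit), and 0 to 1 without 1 pool.

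With the replicate number as a block (replicate block), 1475 of all genes passed, 1 of the claudins, 0 of the other claudins, 0 of the relatives, 0 of the transmembrane partners, 1 of the scaffolds and 0 of the Schwann cell junction genes. To see whether the numbers pair the pools, each pool's deviations from its own group mean were correlated over 19059 genes. Same-numbered pools gave -0.27, -0.53 and 0.06, and pools with unlike numbers gave -0.41 to 0.46. The numbers were therefore not taken as pairs.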
